A study of Mus musculus with 12 samples.

Results

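The transcripts described here encode 10 integrin chains, 4 of the leukocyte beta-2 family (Itgam, Itgax, Itgal and Itgb2) and 6 that bind extracellular matrix or endothelial counter-receptors (Itga4, Itga5, Itgb1, Itgav, Itgb3 and Itgb5). They were found as the rows of the count table whose Ensembl identifier maps to these symbols, which gave 10 of the 46078 genes in the table, each with 1 identifier. All 10 were among the 15866 genes that passed the filter on low counts. The measurement was RNA sequencing of ventrolateral white matter cut by laser from spinal cord sections of C57Bl6 mice. The 4 groups were young naive, middle-aged naive, young injured and middle-aged injured mice, each with 3 pools of tissue from 5 animals. Injury was made by injecting the myelin-dissolving lipid lysolecithin into this tract, and lesions were taken 72 h (day 3) later. The study's methods give the ages as 6 weeks (young) and 8 months (middle-aged), while the sample labels give only the words. Naive mice had no lesion, so the needle and the lipid cannot be told apart, and the spread between mice within a pool was not measured. The 12 libraries held 9834447 to 12807437 counts, and 3 counts, used here as the floor of detection, correspond to 0.234 to 0.305 CPM (the usual library-size-scaled count, with TMM factors applied where levels are given).

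An integrin is a pair of 1 alpha and 1 beta chain that spans the cell membrane and ties the cytoskeleton to matrix or to another cell. Itgb2 (CD18) is the beta chain of leukocytes and pairs with Itgam (CD11b, giving complement receptor 3), Itgax (CD11c, giving complement receptor 4) and Itgal (CD11a, giving LFA-1). Itgb1 pairs with Itga4 (giving VLA-4, a receptor for VCAM1 and fibronectin) and with Itga5 (giving the classical fibronectin receptor). Among the chains described here, Itgav pairs with Itgb1, Itgb3 or Itgb5. It binds ligands with an RGD motif such as vitronectin and osteopontin. In central nervous tissue CD11b serves as a general label of microglia and macrophages, and Itgav with Itgb5 is known as a receptor for the engulfment of dying cells through the bridging protein MFG-E8.

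The captured tissue held the transcripts of white matter, and lesions held more of those of myeloid cells and of fibroblasts. All 6 oligodendrocyte markers fell with injury at both ages, from 53009 to 101953 CPM in sum over the naive pools to 7930 to 20256 CPM over the injured pools. Of 5 astrocyte markers, 4 fell at each age, with sums of 3769 to 5812 CPM in naive and 1155 to 2275 CPM in injured pools. The tissue also held neuron markers, with sums of 681 to 1976 CPM in naive and 275 to 480 CPM in injured pools. All 7 pan-myeloid markers (Aif1, Cd68, Csf1r, Tyrobp, Fcer1g, Laptm5 and Spi1) rose at both ages, as did all 5 monocyte markers. Of the 7 microglia markers, 4 rose and 1 fell in young lesions and 3 rose and 2 fell in middle-aged lesions. Neutrophil markers summed to 0 to 0.64 CPM in naive and 9.94 to 27.4 CPM in injured pools. Of these 7 markers, 2 were tested, and 2 rose at each age. None of the 8 T and NK cell markers passed the filter, so their change was not tested. Their sums were 0.0800 to 0.63 CPM in naive and 1.2 to 5.56 CPM in injured pools. Platelet markers summed to 1.06 to 1.89 CPM in naive pools and reached 9.46 CPM in lesions, where every pool lay above the naive pools. Of the 5 platelet markers, 2 were tested and 1 (Pf4) rose at each age. Ppbp and Gp9 were at or under 3 counts in every pool. All 5 fibroblast markers (Col1a2, Dcn, Lum, Col3a1 and Pdgfra) rose at both ages. Their sum went from 133 to 205 CPM over the naive pools to 550 to 1494 CPM over the injured pools. Pdgfra is also among the oligodendrocyte progenitor markers, so it is not particular to fibroblasts. Of the 6 dendritic cell markers, 4 rose and 1 fell at each age, with sums of 12.1 to 19.9 CPM over the pools. In bulk tissue, more cells of a type and more RNA per cell cannot be told apart, and this holds for every value given here.

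Of the 10 chains, 9 had significantly more transcript in young lesions than in young naive white matter and all 10 had more in middle-aged lesions, while 0 fell at either age. Over all genes tested, 28.3% rose and 26.3% fell in young lesions, and 29.2% rose and 29.3% fell in middle-aged lesions. The median log2 fold change of the 10 chains was 3.46 in young and 3.73 in middle-aged mice, beside medians of 0.00 and -0.03 over all genes. The beta-2 family moved furthest, with medians of 4.77 and 3.84 for its 4 chains against 2.12 and 2.10 for the 6 matrix and adhesion chains. Within the matrix group Itga5 lay within or above the range of the leukocyte chains at both ages and Itga4 only in middle-aged mice. Itgav and Itgb3 lay below that range and changed by at most 2.45-fold.

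**Figure D1:**
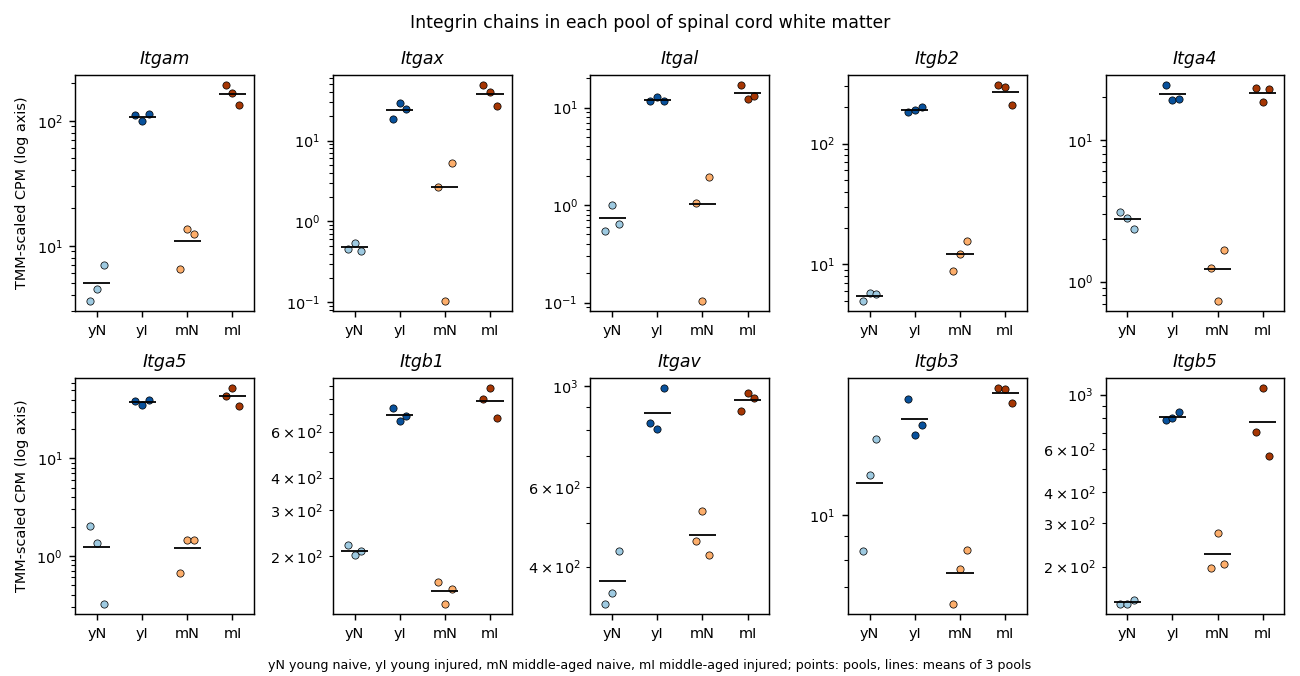
Level of each integrin chain in every pool, in TMM-scaled CPM (log axis), in young naive (yN), young injured (yI), middle-aged naive (mN) and middle-aged injured (mI) white matter. Points are pools of 5 mice and lines are means of 3 pools. In all 10 panels the injured pools of an age lie above the naive pools of that age, with the narrowest gap for Itgb3 in young mice.

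Itgb2, the beta chain shared by the leukocyte integrins, was measured at 5.01, 5.80 and 5.70 CPM in the young naive pools and at 8.74, 12.1 and 15.5 CPM in the middle-aged naive pools. In lesions it reached 184, 189 and 200.4 CPM in young and 303, 295 and 208 CPM in middle-aged pools. No injured pool overlapped a naive pool, and every middle-aged pool lay above every young pool of the same condition. The log2 fold change with injury was 5.12 ± 0.22 (SE, n = 3 pools against 3) at the young and 4.46 ± 0.20 at the older age (edgeR quasi-likelihood test, adjusted p = 2.79e-10 and 5.37e-10), which is 34.7-fold and 22.1-fold.

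Itgam, its partner in complement receptor 3, was measured at 3.64, 4.53 and 6.99 CPM in young naive and at 6.53, 13.5 and 12.5 CPM in middle-aged naive pools. Lesions held 112, 99.99 and 112 CPM in young and 192, 167 and 133 CPM in middle-aged pools. The naive groups overlapped in 1 pool each, and the injured groups did not overlap. The log2 fold change of Itgam with injury was 4.43 ± 0.27 in the young and 3.91 ± 0.26 in the middle-aged group (edgeR, adjusted p = 9.91e-09 and 1.51e-08). In the annotation used here the exons of Itgam share 3450 bases with Gm49368, a gene on the same strand that has no row in the count table. Of the 31-base words in the Itgam transcripts, 68.3% also occur in those of other genes, most often Gm49368.

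Itgax and Itgal were rare in naive tissue. Itgax had 4 to 6 counts in the young naive pools and 28, 1 and 66 counts in the middle-aged naive pools, against 249 to 378 counts in young and 306 to 581 in middle-aged lesions. Itgal, the alpha chain of LFA-1, had 6, 11 and 6 counts in young naive and 11, 1 and 24 in middle-aged naive pools, against 156 to 164 and 152 to 204 counts in lesions. The single counts of both genes came from the same pool, middle-aged naive replicate 2, which is under the floor of 3 counts and stands apart from the other 2 pools of its group for these genes. Both chains nevertheless separated naive from injured pools completely. The log2 fold changes were 5.61 ± 0.68 and 3.77 ± 0.54 for Itgax and 4.02 ± 0.48 and 3.70 ± 0.45 for Itgal in young and middle-aged mice (edgeR, adjusted p = 7.86e-06, 3.45e-05, 5.89e-06 and 6.49e-06). Without that pool the middle-aged values were 3.24 for Itgax and 3.22 for Itgal, and without middle-aged naive replicate 3 they were 4.73 and 4.54, all still called. Of the 31-base words in the Itgax transcripts, 10.7% also occur in those of its neighbour Itgad, which had 1 to 17 counts in every pool.

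The genes of the leukocyte alpha chains lie on mouse chromosome 7 (GRCm38, GENCODE M21, all on the plus strand), Itgal at chr7:127296260-127335138, Itgam at chr7:128062640-128118491 and Itgax at chr7:128129547-128150657. Itgb2 lies at chr10:77530252-77565708, Itga4 at chr2:79255426-79333123 and Itgav at chr2:83724397-83806916. Itgb1 lies at chr8:128685654-128733200, Itgb3 at chr11:104608000-104670476, Itgb5 at chr16:33829665-33949338 and, on the minus strand, Itga5 at chr15:103344286-103366763. All 10 are annotated as protein-coding. Itgam and Itgax are neighbours that both rose with injury at both ages, and the bases upstream of their starts are shown as examples. A promoter entry was present for 7 of the 10 genes (RefSeq, GRCm38.p6) and the 250 bases before the start were searched on both strands for GAGGAA (the core of sites for the myeloid factor PU.1), GGGCGG (an Sp1 box) and TGANTCA (an AP-1 site). Capitals mark GAGGAA, also as its reverse complement, in the window of Itgam at chr7:128062390-128062639 (plus strand). In that of Itgax at chr7:128129300-128129549 (plus strand), which holds no GAGGAA, they mark TGANTCA.
Itgam: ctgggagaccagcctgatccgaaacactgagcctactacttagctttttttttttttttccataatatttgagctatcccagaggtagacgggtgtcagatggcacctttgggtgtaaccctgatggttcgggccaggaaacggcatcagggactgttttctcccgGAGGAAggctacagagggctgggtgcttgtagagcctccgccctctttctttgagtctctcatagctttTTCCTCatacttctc
Itgax: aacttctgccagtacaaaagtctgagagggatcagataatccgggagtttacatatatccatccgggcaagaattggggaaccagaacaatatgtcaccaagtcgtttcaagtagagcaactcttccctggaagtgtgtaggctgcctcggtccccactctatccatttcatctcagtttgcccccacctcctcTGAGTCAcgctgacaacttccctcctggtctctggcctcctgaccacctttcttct
The 2 matches of Itgam begin 84 and 15 bases before the start. GAGGAA occurred in 4 of the 7 windows (Itgam, Itgav, Itgb1 and Itga5) and in 23.3% of 32851 promoters of the same length. GGGCGG occurred in 5 of the 7, in all but Itgax and Itgav, against 32.7%, and TGANTCA in 1 of 7 (Itgax) against 6.75%. These are matches of letters only and were not tested.

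On a per-length scale, in CPM per kilobase of exon, the 3 leukocyte alpha chains kept the same order in lesions of both ages, with Itgam far above Itgax and Itgax above Itgal. Itgam made up 81.9% ± 5.6 (SD, n = 3) of the sum of Itgam, Itgax and Itgal in young naive pools and 75.9% ± 4.4 in young lesions, and 75.7% ± 19.9 and 76.5% ± 1.4 in middle-aged mice. Itgax took 8.62% ± 2.59 and 17.6% ± 4.1 in young mice, with no overlap between pools, and 19.0% ± 15.7 and 18.4% ± 1.9 in middle-aged mice. Neither share changed detectably with injury over both ages (2-sided exact permutation test within ages, p = 0.735 for Itgam and 0.45 for Itgax), nor did that of Itgal (p = 0.32). Middle-aged naive replicate 2, where Itgam was 98.6% of the sum, decided the direction. Without it the change of the Itgam share over both ages went from -2.56 to 3.17 percentage points, that of the Itgax share from 4.20 to -0.34, and that of the Itgal share from -1.63 to -2.83, with an exact p of 0.02. The 3 alpha chains together stood at 0.670 ± 0.155 and 0.720 ± 0.038 of the level of Itgb2 in young and middle-aged naive tissue, and at 0.453 ± 0.009 and 0.486 ± 0.033 in lesions, where the pools of both injured groups lay below all naive pools.

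**Figure D2:**
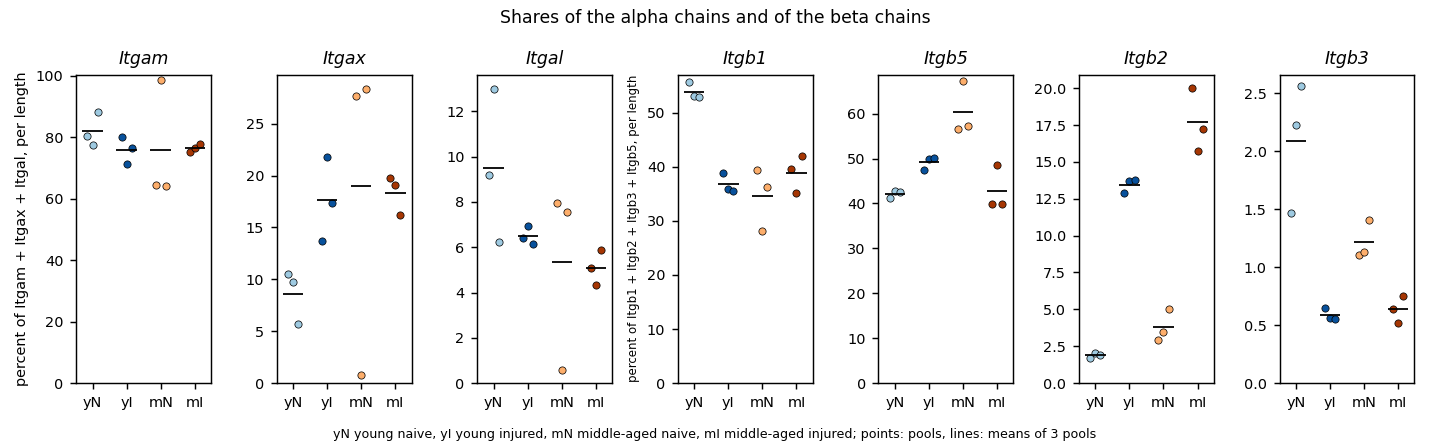
Share of each leukocyte alpha chain in the sum of Itgam, Itgax and Itgal (left 3 panels) and of each beta chain in the sum of Itgb1, Itgb2, Itgb3 and Itgb5 (right 4 panels), in percent of levels per length, by pool, with lines at group means. The Itgb2 share rises with injury at both ages, and the Itgb5 share lies higher in injured than in naive pools of young mice and lower in those of middle-aged mice.

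Itgb1, the most widely used beta chain, was abundant in every group. It was measured at 219.7, 201 and 209 CPM in young naive and 159, 131 and 149.8 CPM in middle-aged naive pools, and at 741, 662 and 691 CPM in young and 803, 879 and 676 CPM in middle-aged lesions. The young naive pools all lay above the middle-aged naive pools, and the injured groups overlapped. Itgb1 rose by 1.73 ± 0.12 with injury in young and by 2.42 ± 0.12 in middle-aged mice on the log2 scale (edgeR, adjusted p = 2.93e-08 and 1.48e-09).

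The alpha partners of Itgb1 were much scarcer in naive tissue. Itga4, which helps to carry leukocytes across VCAM1-bearing vessels, was measured at 3.10, 2.81 and 2.37 CPM in young naive and 1.25, 0.735 and 1.68 CPM in middle-aged naive pools. In lesions it reached 24.2, 19.0 and 19.4 CPM in young and 23.1, 18.6 and 22.9 CPM in middle-aged pools, so that the naive groups were apart and the injured groups overlapped. The log2 fold changes were 2.91 ± 0.24 and 4.10 ± 0.26 (edgeR, adjusted p = 1.69e-07 and 1.28e-08). Itga5 was measured at 2.004, 1.36 and 0.323 CPM in young naive, the last of these from 3 counts, and at 0.672, 1.47 and 1.44 CPM in middle-aged naive pools. Lesions held 39.1, 35.7 and 39.9 CPM of Itga5 in young and 43.2, 52.2 and 34.4 CPM in middle-aged mice. Its log2 fold changes of 4.91 ± 0.37 and 5.16 ± 0.37 (edgeR, adjusted p = 5.92e-08 and 3.12e-08) were the largest of the 6 matrix and adhesion chains. Per length, Itga5 stood at 0.005 ± 0.003 and 0.007 ± 0.003 of the level of Itgb1 in young and middle-aged naive tissue and at 0.045 ± 0.002 and 0.045 ± 0.004 in lesions. The exons of Itga4 overlap those of Cerkl on the opposite strand by 1124 bases. Cerkl had 3 to 46 counts per pool, and the strand setting of the counting is not given in the sources used here.

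Itgav and Itgb5 were already abundant in naive white matter. Itgav, the alpha chain of the vitronectin receptors, was measured at 331, 349.8 and 433 CPM in young naive and 456, 531 and 424 CPM in middle-aged naive pools. Lesions held 828, 805 and 988 CPM in young and 883, 967 and 943 CPM in middle-aged mice, with overlap between ages in both conditions. Itgav rose by 1.23 ± 0.13 and 0.98 ± 0.13 (edgeR, adjusted p = 2.14e-06 and 1.63e-05), or 2.35-fold and 1.98-fold.

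Itgb5, the beta chain of the receptor for MFG-E8 and vitronectin, was measured at 141, 141 and 146 CPM in young naive and 197, 274 and 205 CPM in middle-aged naive pools. It reached 788, 802 and 849.8 CPM in young lesions and 702, 1059 and 560.4 CPM in middle-aged lesions. The middle-aged injured pools thus spread on both sides of the young injured pools. The log2 fold changes were 2.51 ± 0.20 and 1.78 ± 0.19 (edgeR, adjusted p = 1.09e-07 and 2.20e-06).

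Itgb3, the beta chain of the platelet fibrinogen receptor and, with Itgav, of a vitronectin receptor, had the smallest change of the 10 in young mice, while in middle-aged mice that of Itgav was smaller. It was measured at 8.38, 12.2 and 14.6 CPM in young naive, 6.43, 7.66 and 8.40 CPM in middle-aged naive, 17.9, 14.96 and 15.7 CPM in young injured and 18.8, 18.8 and 17.5 CPM in middle-aged injured pools. No injured pool overlapped a naive pool of its age. The log2 fold change was 1.29 ± 0.21 at middle age (edgeR, adjusted p = 0.000105) and 0.46 ± 0.20 in young mice, which missed the threshold (adjusted p = 0.0684). In young mice the call was made by DESeq2 (adjusted p = 0.0473), with library totals as the only scaling (0.0141), without young naive replicate 3 (0.0201) and without middle-aged naive replicate 2 (0.0492). Itga2b, the alpha chain of the platelet receptor, had 1 to 13 counts in every pool and did not pass the filter.

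**Figure D3:**
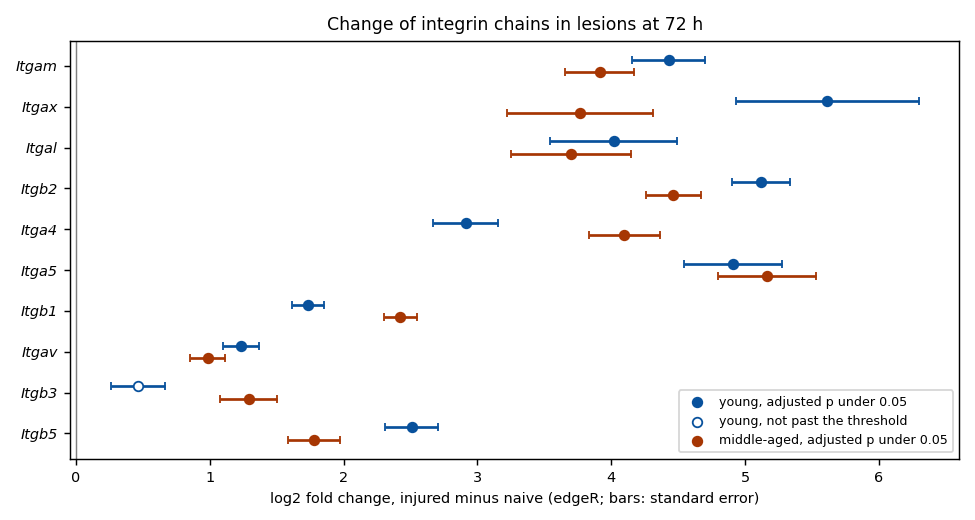
Log2 fold change with injury (injured minus naive) of each chain in young and middle-aged mice from edgeR, with bars of 1 standard error. Filled points have an adjusted p under 0.05. The open point is Itgb3 in young mice, and all other points lie at 0.98 or above.

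The 4 beta chains did not move in proportion. Per length, Itgb2 made up 1.89% ± 0.18 of their sum in young naive pools and 13.5% ± 0.5 in young lesions, and 3.80% ± 1.11 and 17.7% ± 2.2 in middle-aged mice. Itgb3 went the other way, from 2.09% ± 0.56 to 0.589% ± 0.053 and from 1.22% ± 0.17 to 0.638% ± 0.117. Both changes over the 2 ages were larger than the spread between pools (2-sided exact permutation test within ages, 400 arrangements, p = 0.005 for each, the smallest they can give). The shares of Itgb1 and Itgb5 did not pass that exact test (p = 0.11 and 0.245). In young mice Itgb1 went from 53.9% ± 1.6 to 36.8% ± 1.9 and Itgb5 from 42.1% ± 0.9 to 49.2% ± 1.4, whereas in middle-aged mice Itgb1 went from 34.6% ± 5.9 to 38.9% ± 3.5 and Itgb5 from 60.3% ± 6.1 to 42.8% ± 5.0. Within 1 age such an exact test cannot go below p = 0.1. The 17 exact tests of shares and ratios given here are not adjusted.

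Ordered by level per length, Itgb1 led in young naive tissue at 51.5 ± 2.2 CPM per kilobase, followed by Itgb5 at 40.2 ± 0.9 and Itgav at 34.6 ± 5.0, the last 2 of which overlapped between pools. In middle-aged naive tissue the order of these 3 was Itgb5 at 63.5 ± 11.8, Itgav at 43.8 ± 5.1 and Itgb1 at 35.9 ± 3.4, with no overlap of neighbours. The next highest chain was at 1.99 ± 0.53 (Itgb3) in young and 3.97 ± 1.11 (Itgb2) in middle-aged naive pools. In young lesions the order was Itgb5 at 229 ± 9, Itgb1 at 171 ± 10, Itgav at 81.3 ± 9.3, Itgb2 at 62.6 ± 2.8, Itgam at 21.5 ± 1.4, Itga5 at 7.75 ± 0.46, Itgax at 4.99 ± 1.15, Itgb3 at 2.74 ± 0.26, Itgal at 1.83 ± 0.09 and Itga4 at 1.49 ± 0.21, and no neighbours overlapped. Middle-aged lesions had the same order except that Itgb2 at 88.0 ± 17.3 stood before Itgav at 86.7 ± 4.1. There the pools of Itgb5 and Itgb1, of Itgb2 and Itgav, and of Itga5 and Itgax overlapped. Length here is that of merged exons, 10744 bases for Itgav and 13978 for Itga4, against 7054 and 9767 in their longest transcripts. For Itgb5 the 2 lengths are closer, at 3553 and 3282 bases. The places of Itgav and Itga4 can therefore differ with the length used, and the order by transcript length was not computed.

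The chains were also set against the myeloid markers of the same pool, by taking the log2 ratio of each chain's count to the summed count of the 7 pan-myeloid markers. That sum was 1003 to 1149 counts in young naive, 1447 to 2104 in middle-aged naive, 22654 to 23743 in young injured and 20250 to 28653 in middle-aged injured pools. Its make-up differed between the conditions, since Csf1r was the most abundant of the 7 in naive tissue, at a mean of 57.9 and 68.8 CPM in young and middle-aged mice against 6.28 and 22.4 CPM for Cd68, and Cd68 the most abundant in lesions, at 743 and 1012 CPM against 245 and 247 CPM for Csf1r. Relative to this sum, Itgb2 was higher in lesions by 0.95 on the log2 scale over both ages (2-sided exact permutation test within ages, p = 0.005), Itgam by 0.36 (p = 0.02) and Itga5 by 1.35 (p = 0.015). Itgb1, Itgb5 and Itgav, the matrix chains of high naive level, were lower relative to the markers. Their log2 differences were -1.77, -1.72 and -2.73 (exact p = 0.005 each). Itgb3, which was much scarcer in naive tissue, was also lower, at -2.95 (exact p = 0.005). By the same exact test, Itgax (1.31, p = 0.08), Itgal (0.32, p = 0.885) and Itga4 (-0.32, p = 0.435) did not pass. With Cd68 left out of the sum, Itgax and Itgal passed the exact test (2.04, p = 0.015, and 1.05, p = 0.025), and the value of Itga4 turned to 0.41 (p = 0.34). The 7 chains that passed with Cd68 kept their direction and passed without it, with Itgam at 1.096, Itgb2 at 1.68, Itga5 at 2.09, Itgb1 at -1.04, Itgb5 at -0.99, Itgav at -2.0 and Itgb3 at -2.22. The ratio of Itgam missed the threshold without middle-aged injured replicate 1 (0.33), that of Itgax passed without middle-aged naive replicate 3 (1.81), and that of Itgal turned to -0.29 without middle-aged naive replicate 2.

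**Figure D4:**
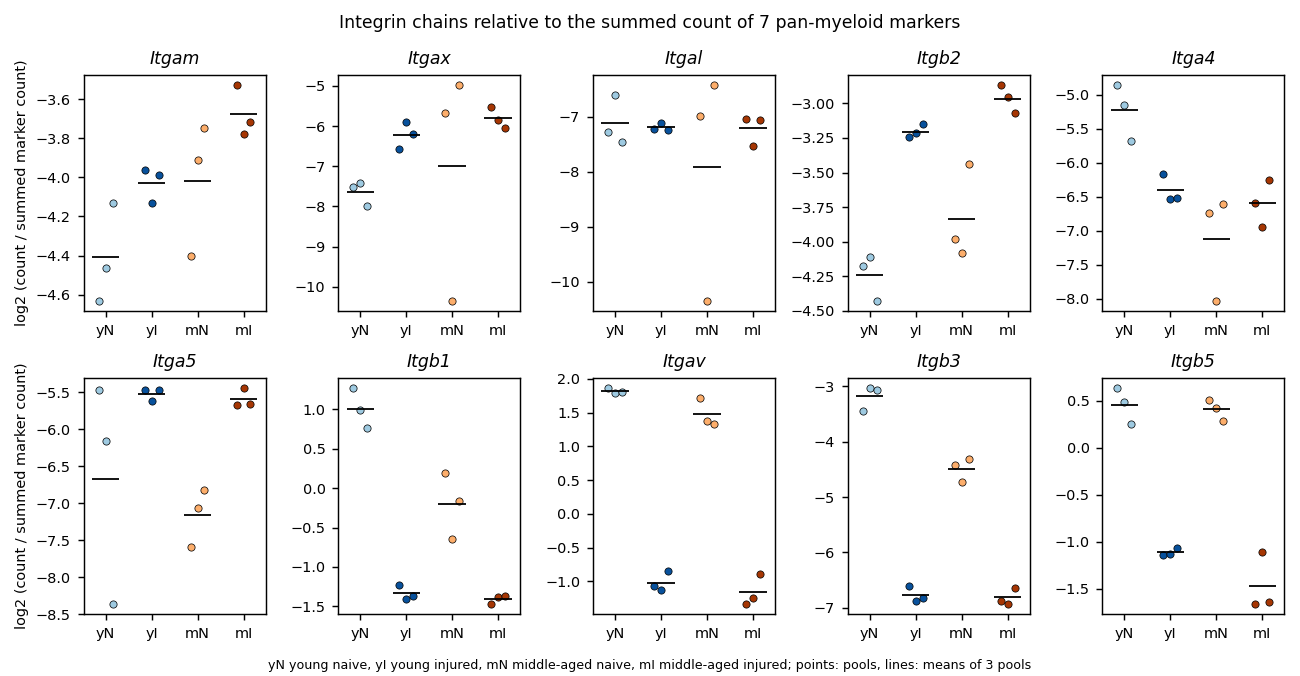
Log2 ratio of the count of each chain to the summed count of 7 pan-myeloid markers (0.5 added to the count of the chain only) by pool, with lines at group means. In lesions Itgb2 lies between -3.245 and -2.87, above its naive pools, and Itgav lies between -1.33 and -0.85, below its naive pools.

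Age was compared first in naive white matter, where 4 of the 10 chains differed, beside 3.80% of all genes tested in either direction. The beta-2 chains Itgb2 and Itgam were higher in middle-aged than in young naive mice, by 1.14 ± 0.21 and 1.11 ± 0.28 on the log2 scale (edgeR, adjusted p = 0.00924 and 0.0407). Itgb1 and its partner Itga4 were lower, with log2 differences of -0.52 ± 0.12 and -1.14 ± 0.29 (adjusted p = 0.0279 and 0.0417). Itgax (2.52 ± 0.77, adjusted p = 0.0926), Itgb5 (0.66 ± 0.19, 0.0742) and Itgb3 (-0.64 ± 0.21, 0.116) missed the threshold. Itgav, Itgal and Itga5 had adjusted p of 0.174, 0.649 and 0.960. Of the pan-myeloid and microglia markers, 4 of 7 each were also higher in middle-aged naive tissue, and 3 of 6 oligodendrocyte markers were lower. Their part in the integrin values was not tested.

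These age differences depended on which pools were fitted. Itgb2 remained called without any 1 of the 12 pools, with adjusted p from 0.00302 to 0.0462. The number of chains called fell to 2 without young naive replicate 1, young naive replicate 3 or middle-aged naive replicate 2, and to 1 without young naive replicate 2, any of the 3 young injured pools or middle-aged injured replicate 1. Without middle-aged naive replicate 2 the log2 difference of Itgax was 3.05 and was called (adjusted p = 0.00285), while those of Itgam, Itgb1 and Itga4 were not (0.0876, 0.0561 and 0.0854). A fit of the 6 naive pools alone called 0 chains, with an adjusted p of 0.157 for Itgb2.

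Between young and middle-aged lesions, 0 of the 10 chains differed by edgeR and 0 by DESeq2, beside 1.15% of all genes. At an unadjusted p under 0.05 there were 2 of 10 chains, beside 9.62% of all genes, namely Itgb2 at 0.49 ± 0.17 (edgeR, adjusted p = 0.262) and Itgam at 0.60 ± 0.22 (adjusted p = 0.310), both higher in middle-aged mice. A fit of the 6 injured pools alone called Itgam (adjusted p = 0.0187). The log2 differences of the other 8 chains ran from -0.07 for Itgb5 to 0.67 for Itgax. Of the pan-myeloid and monocyte markers, 0 differed with age in lesions, and 5 of 6 oligodendrocyte markers were lower in lesions of the older mice.

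The injury effects themselves were compared between ages by an interaction term, with 0 of 10 chains called beside 0.139% of all genes, and 5 of 10 at an unadjusted p under 0.05, beside 9.92% of all genes at that threshold. Itgb1 came nearest, with an injury effect larger by 0.69 ± 0.17 in middle-aged mice (edgeR, adjusted p = 0.133), and it was called by DESeq2 (adjusted p = 0.00959) and with no filter on low counts (0.0434). Itga4 (1.19 ± 0.36, adjusted p = 0.219) and Itgb3 (0.83 ± 0.29, 0.329) had the same sign as Itgb1. Itgb5 (-0.73 ± 0.27, 0.358) and Itgb2 (-0.65 ± 0.27, 0.443) had the opposite sign. The interaction shares its naive pools with the age comparison in naive tissue, so the 2 are not independent. In that age comparison each of these 5 chains had a difference opposite in sign to its interaction value, from -1.14 for Itga4 to 1.14 for Itgb2. All 4 beta-2 chains had a negative value, Itgam at -0.51 ± 0.35, Itgax at -1.85 ± 0.92 and Itgal at -0.32 ± 0.66, none of which passed the threshold. The value of Itgal turned to 0.52 without middle-aged naive replicate 3.

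Other integrin chains moved in both directions. Of 18 further chains, 12 passed the filter, and 7 rose and 2 fell in young lesions, with a median log2 fold change of 1.12, while 6 rose and 3 fell in middle-aged lesions, with a median of 1.09. Itga6, a laminin receptor chain, rose by 2.22 ± 0.12 and 2.67 ± 0.12. Itgb4, which pairs with Itga6 alone, fell by 2.40 and 2.42 on the log2 scale. Itga9 (1.27 and 1.64) and Itga1 (1.53 and 1.26) also rose at both ages. Itgae and Itgb7 were under the level set for naming and were chosen after their values were seen. Itgae had the largest rise of the 12 at both ages, 3.90 ± 0.61 and 5.51 ± 0.69. It had 0 to 2 counts in naive pools and 21 to 56 in lesions. Itgb7, the alternative partner of Itga4, rose by 2.21 ± 0.58 and 5.03 ± 0.64, from 0 to 11 counts in naive pools to 29 to 122 in lesions. Itgb8, also chosen after its values were seen, is outside the beta-chain shares given above. Its mean was 241 and 171 CPM in young and middle-aged naive tissue and 130 and 109 CPM in lesions. It fell by 0.89 and 0.65 on the log2 scale (edgeR, adjusted p = 0.0011 and 0.0085). None of the 12 tested chains differed with age in naive or injured tissue by edgeR.

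Ligands on cells and in complement were mixed, whereas most matrix and secreted ligands rose. Of 12 surface and complement ligands, 9 were tested, and 4 rose and 3 fell at each age, with a median log2 fold change of 0.64 at both. Icam1, the counter-receptor of the beta-2 chains, rose by 3.62 ± 0.25 and 3.31 ± 0.24, from a mean of 1.71 and 2.33 CPM to 21.3 and 23.1 CPM in young and middle-aged mice. C3, whose fragment iC3b is bound by Itgam and Itgax with Itgb2, fell by 0.89 and 2.09 on the log2 scale, and in naive tissue it was higher in middle-aged mice by 0.95 ± 0.19 (edgeR, adjusted p = 0.0121). Thy1 (-1.63 and -1.71) and Jam3 (-1.16 and -1.52) were also lower in lesions. Of 20 matrix and secreted ligands, 17 were tested. In young lesions 13 rose and 3 fell (median 3.64), and in middle-aged lesions 12 rose and 2 fell (median 2.04). Mfge8, encoding MFG-E8, did not pass the threshold at either age (0.15 and 0.33, edgeR, adjusted p = 0.538 and 0.163). Vtn, encoding vitronectin, was lower in lesions of both ages (-0.63 and -1.85, adjusted p = 0.0262 and 7.91e-06), as was Edil3 (-1.95 and -2.32).

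By the mean change of both ages, Thbs1, Spp1, Col1a1 and Fn1 were the 4 matrix and secreted ligands with the largest changes. In middle-aged mice alone, Tnc (4.57) lay above Col1a1 and Fn1, and Tgfb1 (4.33) above Fn1. Thbs1, encoding thrombospondin 1, rose by 8.16 ± 0.35 and 8.92 ± 0.35, and in lesions it was higher in middle-aged mice by 1.13 ± 0.23 (edgeR, adjusted p = 0.0271). Spp1, encoding osteopontin, rose by 6.11 ± 0.32 and 6.48 ± 0.32 to 8750 ± 575 CPM in young and 13413 ± 1428 CPM in middle-aged lesions (SD, n = 3). Fn1, encoding fibronectin, rose by 4.77 ± 0.27 and 4.25 ± 0.27. Col1a1, the collagen chain bound by Itga1 with Itgb1, rose by 5.06 ± 0.41 and 4.46 ± 0.45 but was lower in middle-aged than in young lesions, with a log2 difference of -1.92 ± 0.33 (adjusted p = 0.0107).

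Of 30 genes that activate integrins or link them to the cytoskeleton, 29 were tested, and 18 rose at each age while 5 fell in young and 6 in middle-aged lesions (medians 1.45 and 1.48). Fgr, a Src-family kinase of myeloid cells, rose by 5.08 ± 0.50 and 5.40 ± 0.48. Parvg, the parvin of blood cells, rose by 5.05 ± 0.29 and 3.10 ± 0.25, and in naive tissue it was higher in middle-aged mice by 1.87 ± 0.32 (edgeR, adjusted p = 0.00521). Syk (4.15 and 3.77), the kinase downstream of beta-2 integrins, and Fyb (4.03 and 3.74), an adaptor in integrin activation of leukocytes, rose at both ages as well.

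**Figure D5:**
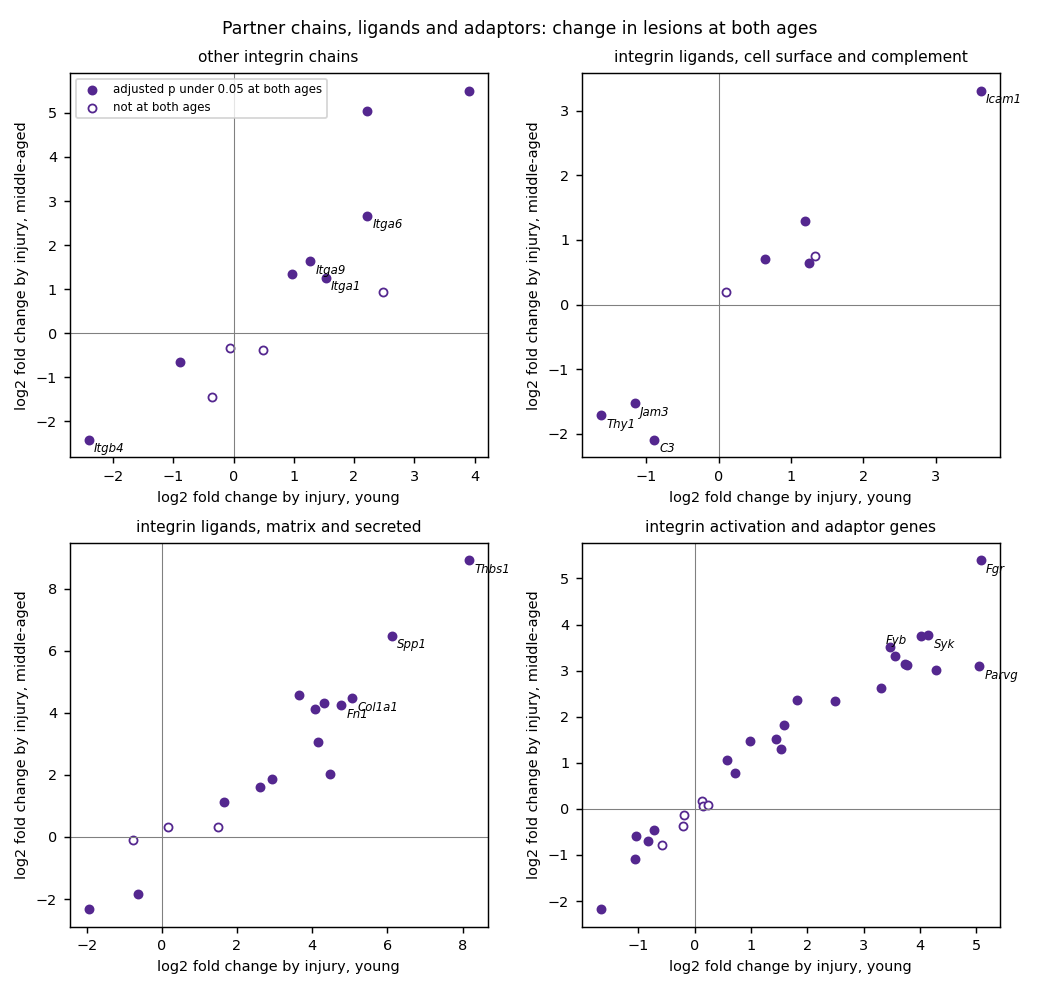
Log2 fold change with injury in young (x axis) and middle-aged mice (y axis) of the tested genes of 4 lists, with the 4 genes per list chosen by the naming rule labelled. Filled points passed the threshold at both ages. Thbs1 (8.16 and 8.92) lies furthest from 0, and Itgb4, C3, Thy1 and Jam3 are below 0 at both ages.

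Across the 12 pools, the genes most like Itgb2 in log2 CPM were Igsf6, Mpeg1 and Tlr7 (Pearson r of 0.999, 0.998 and 0.998), and those most like Itgb5 were Rpl10a, Apoe and Ftl1 (r of 0.990, 0.989 and 0.989). Among the chains themselves, Itgam with Itgb2 had the highest r at 0.994 and Itgax with Itgb3 the lowest at 0.697. Itga4 followed Itgb1 at 0.987. These values describe 12 pools that share 1 large contrast between naive and injured tissue.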

How the data were processed

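RNA of laser-captured spinal cord white matter was sequenced in 12 pools of 5 mice. The authors amplified RNA at library building (REPLI-g), sequenced it on an Illumina NextSeq500, checked reads with FastQC 0.11.4, mapped them to Ensembl GRCm38 with TopHat 2.0.10 (bowtie 1.1.2) and deposited featureCounts output, 1 whole-number count per gene and pool, not normalized. The annotation release, the strand setting and the handling of reads shared by genes are not given in the sources used here. Amplified reads are not independent molecules, so the floor of 3 counts covers counting error only.

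Group and replicate number came from the sample labels, and ages from the methods. Identifiers were matched to symbols and positions with GENCODE M21 (GRCm38), and levels per length are CPM per kilobase of merged exons. Counts were fitted over all samples in R 4.3.3 with edgeR 4.0.16 (TMM, filterByExpr, glmQLFit, glmQLFTest), 1 coefficient per group, p-values adjusted by Benjamini-Hochberg over 15866 genes, threshold 0.05. Standard errors were obtained by dividing a log2 fold change by the square root of its F, and log2 CPM used a prior count of 2. The labels do not say more of how pools differ than their number, so p-values measure the spread between these pools. Shares, and ratios to the markers (0.5 added to the count of the chain only), were tested by 2-sided exact permutation within ages. DESeq2 1.42.0, other scalings, other filters, a replicate block, only the 6 pools compared, and each pool left out were the alternatives. The edgeR and permutation steps were tested on simulated data. Named were the members, up to 4 genes per list called at both ages with mean log2 CPM of at least 1 and the largest mean change, integrin chains called with age, and the 3 genes most correlated with the chain of highest level in each family. The members and lists were chosen with earlier results of these data known.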

Additional observations from a re-analysis of the deposited data

Results flagged for a closer look

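The share of Itgb5 among the 4 beta chains, per length, moved in opposite directions with injury at the 2 ages. It was higher by 7.06 percentage points in young lesions, with all 3 injured pools above all 3 naive pools, and lower in middle-aged lesions, with a difference of -17.6 percentage points and all 3 injured pools below all 3 naive pools. The difference between these share effects was not tested. The count of Itgb5 itself rose at both ages, and the interaction for its log2 fold change did not pass the threshold (-0.73 ± 0.27, edgeR, adjusted p = 0.358). The share of Itgb2 rose at both ages, and the naive share of Itgb1 was 53.9% in young and 34.6% in middle-aged mice.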

How the results depend on the processing

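The injury calls held under every alternative run, with 9 or 10 chains called at the young age and 10 at the older age. The age difference in naive tissue called 4 chains, and 1 to 4 with a pool left out, 5 by DESeq2, 6 with no filter, 3 with the replicate block, 3 with library totals alone, where Itga4 was lost (adjusted p = 0.0524), and 0 in a fit of the 6 naive pools, where Itgax was filtered out. In lesions 1 chain was called from the 6 injured pools alone. For the difference of injury effects, 1 chain was called by DESeq2 and 1 with no filter. Values near 0 changed sign with a pool left out. These ranged from -0.49 to 0.45 for Itga5 and -0.30 to 1.03 for Itgal (age, naive), from -0.016 to 0.17 for Itga4 and -0.36 to 0.13 for Itgb5 (age, injured), and from -0.27 to 0.67 for Itga5 and -0.80 to 0.52 for Itgal (difference of injury effects). With library totals alone, Itga4 in lesions was -0.018, and the median of all genes was 0.20 for injury in young mice and -0.13 for the difference of injury effects. With a pool left out, the changes of alpha-chain shares ranged from -5.46 to 3.17 percentage points for Itgam, -0.34 to 6.55 for Itgax and -2.83 to -0.75 for Itgal. The log2 ratios to the myeloid markers ranged from 0.27 to 0.43 for Itgam, 0.47 to 1.81 for Itgax and -0.29 to 0.69 for Itgal. Without Cd68 in the sum they were 2.04 for Itgax and 1.05 for Itgal, both now past the threshold, and 0.41 for Itga4. The cause of these changes was not tested, but middle-aged naive replicate 2, with 1 count of Itgax and of Itgal, limits their shares and ratios.

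No pairing of the pools by replicate number was seen, although this check cannot exclude one. The deviations of 18 same-numbered pairs had correlations of -0.11 to 0.15, and 2 were over 0.1. Those of 36 pairs with different numbers ran from -0.17 to 0.17, and 3 were over 0.1. With the number as a block, 9, 10, 3, 0 and 0 chains were called for injury in young, injury in middle-aged, age in naive, age in injured mice and the difference of injury effects, and Itgam in naive tissue was at 1.11 (adjusted p = 0.0563).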
